A study of Mus musculus with 4 samples.

Results

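The 34 imprinted genes described here are the rows whose gene name equals a listed symbol, out of 49997 rows in each count table. All 34 were present, 28 of them protein-coding and 6 long noncoding RNAs (H19, Airn, Meg3, Rian, Mirg and Kcnq1ot1). A filter on low counts left 33 for testing, and Snrpn was the member that did not pass it. Imprinted genes are expressed mainly from the chromosome of a single parent. The choice is set in the germ line as DNA methylation at a control region, and in several clusters a long noncoding RNA made from the other chromosome goes with silence of the coding genes beside it. Many of these genes set the growth of the embryo and placenta, and members of the Igf2-H19, Kcnq1 and Dlk1-Meg3 clusters are known from the biology of blood stem cells.

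RNA was measured in 4 libraries of explants of the mouse aorta-gonad-mesonephros (AGM), the embryonic region where blood stem cells first arise. The embryos of both groups were C57BL/6J, and culture lasted 48 hours at the gas-liquid interface in MyeloCult with hydrocortisone. The untreated group (2 libraries) had no further agent, and the CCCP group (2 libraries) had 5 µM CCCP, a protonophore that discharges the mitochondrial membrane potential, for 48 hours. The growth protocol names embryos of stages E10.5 and E11.5 and the design text E10.5 alone. The labels give the cells as embryonic HSCs and the design text speaks of c-kit+ cells, while the extraction protocol describes RNA of explants. Nothing states whether explants were pooled or the libraries came from separate cultures, so p-values measure the spread between these libraries, which may be technical. The strain is inbred and the counts carry no allele, so the parental origin of a transcript cannot be read from them.

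The libraries held 37360968 to 48827826 counted reads. No gene of 19837 passed an adjusted p-value of 0.05 in the quasi-likelihood test of edgeR, adjusted by Benjamini and Hochberg (0% called), 2899 had an unadjusted p under 0.05, and DESeq2 called 594. Levels are CPM, counts scaled to a common library size with TMM factors. Marker transcripts of blood stem and progenitor cells summed to 192 to 244 CPM, against 3350.2 to 5761 CPM for mesenchymal markers, with 10 of 11 and 9 of 10 genes past the filter. Erythroid markers summed to 1882 to 2891 CPM. The collagen genes Col3a1, Col1a2 and Col1a1 led the mesenchymal sum, and such sums do not measure shares of cells. Kit, which marks the cells named in the design text, stood at 47.6 to 63.2 CPM and the blood cell marker Ptprc at 3.39 to 6.85 CPM. All 11 hepatic markers lay lower in both CCCP libraries, with sums of 1773 and 1006 CPM untreated and 53.6 and 109.6 CPM with CCCP and a median log2 fold change of -4.52. In bulk RNA, fewer cells of a type and less RNA per cell cannot be told apart.

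Several members are hosts or antisense partners of microRNAs, and their sequences show where the count of a member is incomplete. A read that touched exons of more than 1 gene was counted for none of them, and strand was not used. Exons of H19, Meg3, Mirg and Rtl1 overlap 21 annotated microRNA genes, of which 20 had 0 counts in every library. Rtl1 alone overlaps 15, and 13 of these lie on the opposite strand, so that their mature microRNAs are complementary to the Rtl1 transcript over their whole length. Mature sequences are shown for a few of them (RefSeq, GRCm38.p6, the seed in capitals), each with a seed of its own.
miR-675-5p, in the exon of H19: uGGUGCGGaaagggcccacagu
miR-675-3p, in the exon of H19: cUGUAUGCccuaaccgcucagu
miR-770-5p, in an exon of Meg3: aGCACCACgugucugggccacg
miR-431-5p, opposite to Rtl1: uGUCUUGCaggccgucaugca
miR-433-3p, opposite to Rtl1: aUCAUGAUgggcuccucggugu
miR-127-3p, opposite to Rtl1: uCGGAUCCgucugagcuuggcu
miR-434-3p, opposite to Rtl1: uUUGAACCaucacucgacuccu
miR-136-5p, opposite to Rtl1: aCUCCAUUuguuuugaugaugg
miR-410-3p, in an exon of Mirg: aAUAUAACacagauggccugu

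A promoter stretch is shown for Meg3, which was chosen after its values were seen. The RefSeq table holds windows of 300 bases (250 before to 50 after a start) for 28 of the 34 members. The letters TGACGTCA are a cAMP response element that reads the same on both strands. They occurred in 3 of the 42 windows of these members (those of Meg3, Peg3 and Usp29) and in 1.79% of all 32851 windows. Peg3 and Usp29 are transcribed away from each other and share the same copy. Zim1, Ube3a, Plagl1, Rtl1 and Rian, which had smaller unadjusted edgeR p-values than Meg3, were not among the 3 members with the element. A link between the element and the levels was not tested. The 250 bases before the start of Meg3 (chr12:109540746-109540995, GRCm38.p6, plus strand) and 30 bases around the shared copy (chr7:6730579-6730608, plus strand) read as follows, with the element in capitals.
Meg3 upstream: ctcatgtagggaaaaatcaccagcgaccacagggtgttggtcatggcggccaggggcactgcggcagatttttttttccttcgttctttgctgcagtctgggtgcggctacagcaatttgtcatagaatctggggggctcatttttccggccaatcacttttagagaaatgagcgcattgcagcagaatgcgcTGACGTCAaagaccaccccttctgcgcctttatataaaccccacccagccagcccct
Peg3 and Usp29 shared copy: aggcacggagtTGACGTCAacggagtcagt

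The explants expressed imprinted genes over more than 3 orders of magnitude. Together the 34 members took 1.82% to 2.09% of all counts in a library. For Igf2r, Airn, Dlk1, Meg3, Rtl1 and Rian the annotation used for counting lists exons on alternate contigs too. Whether the alignment index held those contigs is not given in the sources used here. If it did, reads mapping to both copies were left out, and the levels, the place in the order and the ratios of these 6 members would be affected. Per length, the order began with H19 at 2348 CPM per kb of exon shared with no other gene (mean of 4 libraries), then the growth factor gene Igf2 at 642, the cell cycle inhibitor gene Cdkn1c at 481, the proteolipid gene Nnat at 386 and the hydrolase-like gene Mest at 356. Grb10, which encodes an adaptor that restrains insulin and IGF receptors, stood at 276 CPM per kb. Peg3, Rian, Gnas, Dlk1 and Peg10 lay between 103 and 122 CPM per kb, and their ranges over the libraries overlapped. The lowest members were Rtl1 (1.201 CPM per kb), the deiodinase gene Dio3 (0.880), Kcnq1ot1 (0.847), Phlda2 (0.736) and the transporter gene Slc22a18 (0.363). By counts, H19 ranked 3, 3, 4 and 4 among all rows in the 4 libraries, and Igf2 ranked between 5 and 8.

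**Figure D1:**
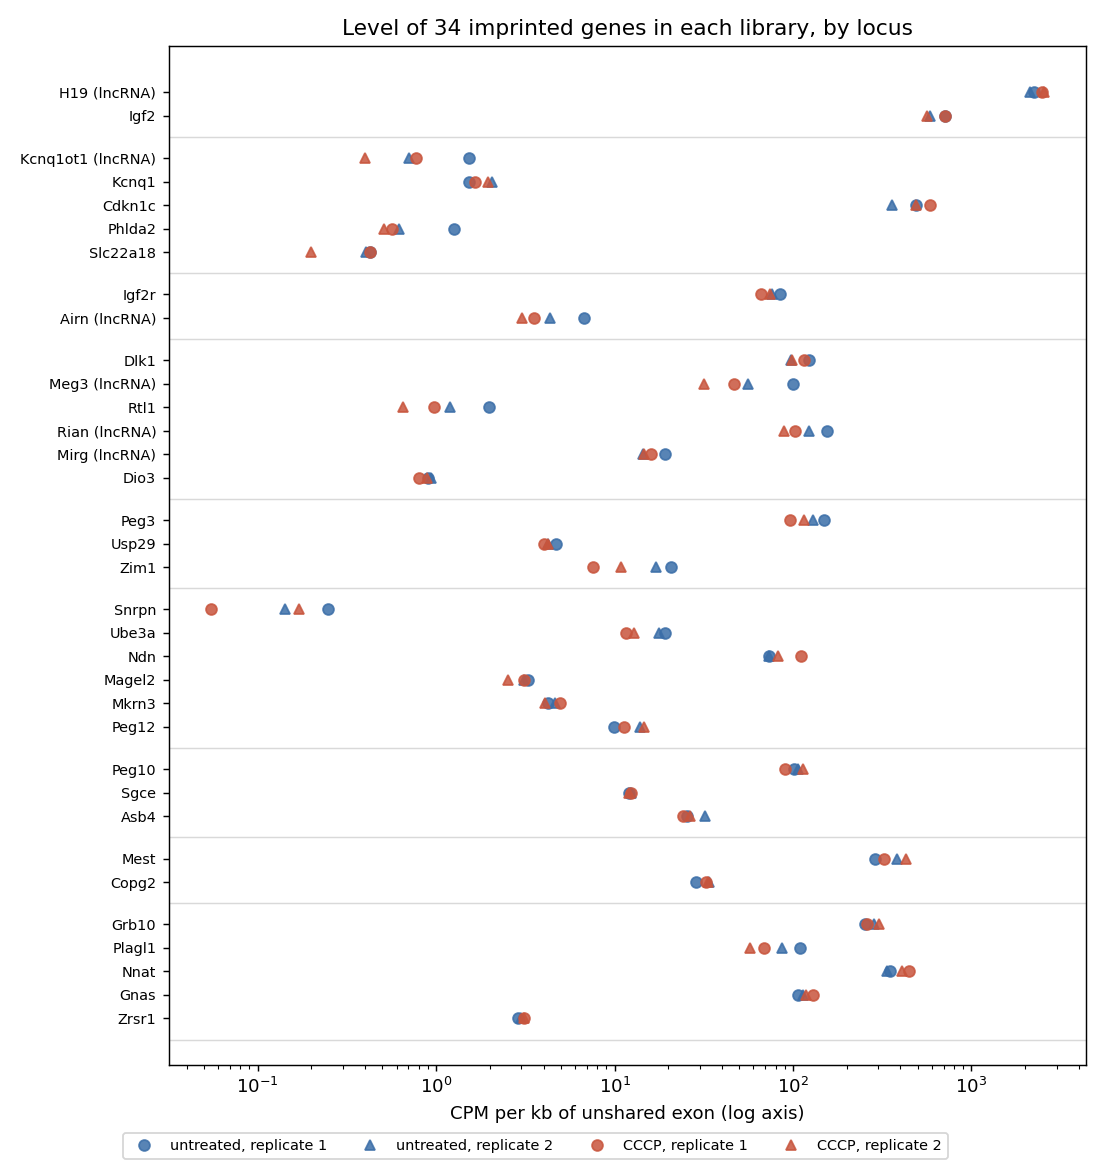
Level of each member in CPM per kb of exon shared with no other gene (log axis), by locus; blue is untreated and red CCCP, circles are replicate 1 and triangles replicate 2. H19 (mean 2348) and Slc22a18 (mean 0.363) mark the ends among the tested members. Snrpn, which was not tested, is drawn from its few counts and is given no place in the order.

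No imprinted gene passed between CCCP and untreated explants in the edgeR test, with 0 of 33 called and adjusted p-values between 0.169 and 0.990. At an unadjusted p under 0.05 there were 8 of 33, against 14.6% of all genes tested. Of these, 7 were lower in CCCP (9.16% of all genes) and 1 was higher (5.45%). DESeq2 called 5 of 33, all lower in CCCP: Meg3, Rtl1, Zim1, Ube3a and Plagl1. Of the 17914 genes to which DESeq2 gave an adjusted p it called 3.32%, 2.99% as lower. Without the filter on low counts edgeR called 7 of 34, all lower, and 3.43% of the 32261 genes then tested (2.76% as lower and 0.673% as higher). The replicate number is not stated to mark a shared culture. With it as a block edgeR called 8 of 33, all lower, against 10.7% of all genes (6.88% lower, 3.8% higher). With the block and the trend on exon length removed it called 7 as lower and Gnas as higher, against 7.91% of all genes (4.1% lower, 3.81% higher).

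Both CCCP libraries lay on the same side of both untreated libraries for 17 of 33 members, or 51.5%, against 48.8% of all genes, so the share of separated members was near the background. Of the separated members 12 were lower in CCCP and 5 higher, against 24.8% and 24% of all genes.

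The coding genes and the noncoding RNAs differed in their median. The 27 coding genes had a median log2 fold change (CCCP over untreated) of -0.02, close to the -0.01 of all genes, and 15 of 27 estimates were below 0 (50.8% of all genes). The 6 noncoding RNAs had a median of -0.64, 5 of 6 estimates were below 0, and H19 was the exception. Of those below 0, Meg3, Rian and Mirg lie in the same cluster and need not be separate cases. The median log2 CPM of the noncoding RNAs had a standard deviation of up to 0.51 between libraries of the same group. Without untreated replicate 1 the median of the noncoding RNAs was -0.30, and without untreated replicate 2 it was -0.83. Each of these medians describes the members that passed the filter, and none was tested against other genes.

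**Figure D2:**
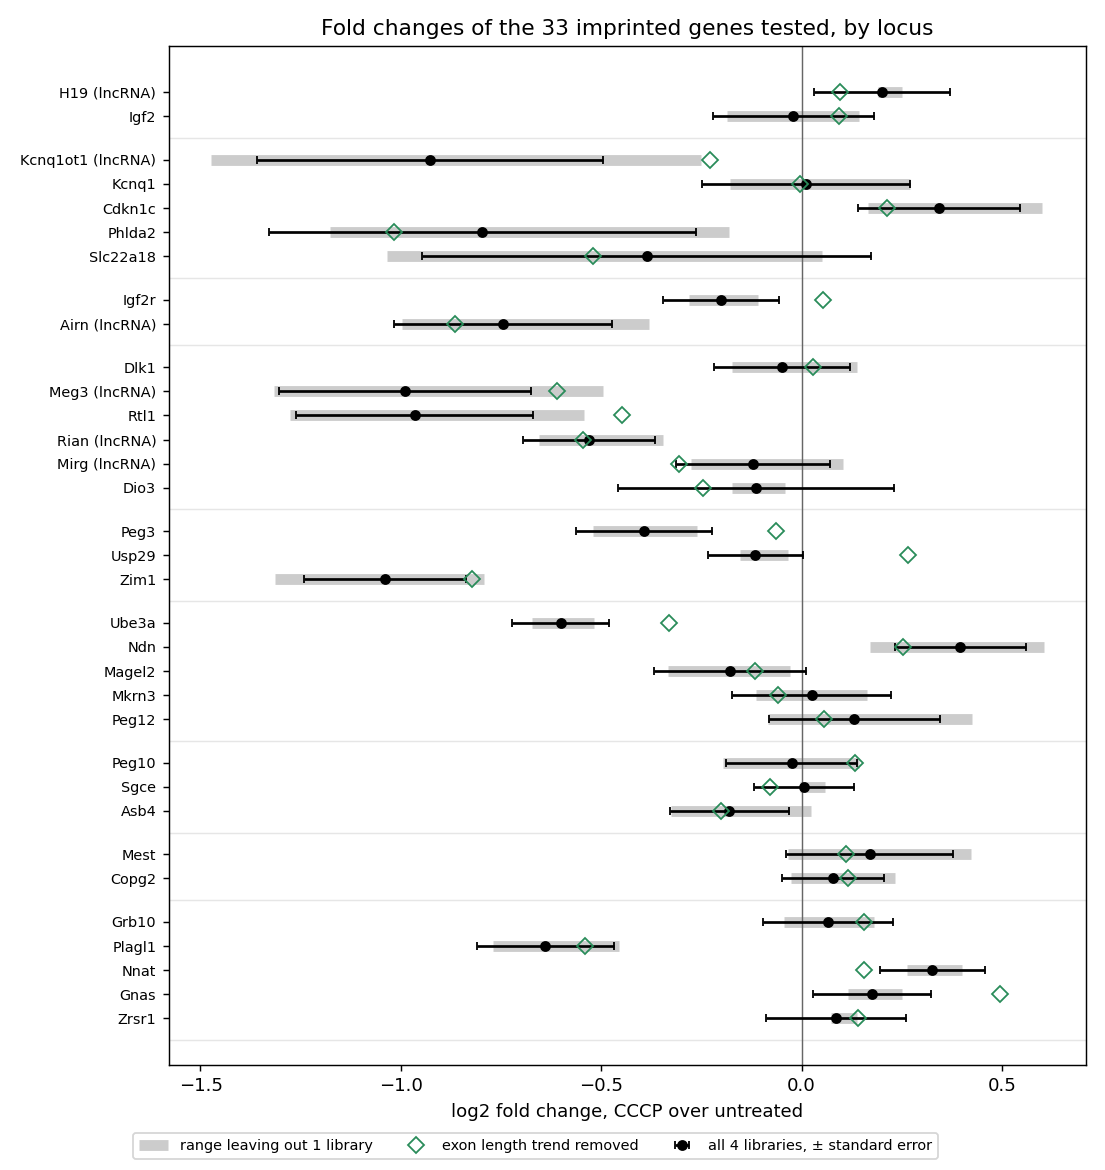
Log2 fold change of each tested member (CCCP over untreated), by locus; black points and bars are the fit to all 4 libraries with its standard error, grey bars the range when 1 library is left out, and green diamonds the fit with the exon length trend removed. Zim1 (-1.04), Meg3 (-0.99) and Rtl1 (-0.97) lie farthest to the left, and Ndn (0.40) farthest to the right.

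H19, a maternally expressed noncoding RNA of the Igf2-H19 cluster (chromosome 7, 142575530 to 142578146), had 4951 and 4679 CPM untreated and 5455 and 5612 CPM with CCCP. The CCCP libraries were the 2 highest, by a small margin. The log2 fold change was 0.20 (standard error, SE, 0.169; edgeR adjusted p 0.601). Igf2, the paternally expressed fetal growth factor gene next to it (chromosome 7, 142650768 to 142666816), had 3968 and 3256 CPM untreated and 3960.3 and 3162 CPM with CCCP. Its groups overlapped fully, at a log2 fold change of -0.02 (edgeR adjusted p 0.974). Igf2 and H19 are also known as abundant transcripts of fetal liver. The hepatic marker Afp had 860 and 577 CPM untreated and 1.69 and 44.9 CPM with CCCP, and its part in the Igf2 and H19 levels was not tested.

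The Igf2r cluster holds the receptor gene that clears Igf2 and its antisense RNA Airn, which starts inside Igf2r and silences it on the paternal chromosome. Igf2r (chromosome 17, 12682406 to 12769706) had 759 and 681 CPM untreated and 589 and 664 CPM with CCCP, a log2 fold change of -0.20 (edgeR adjusted p 0.541). Its groups were separated by a small margin. Airn (chromosome 17, 12741311 to 12859884) had 14.7 and 9.47 CPM untreated and 7.77 and 6.67 CPM with CCCP. Untreated replicate 1 stood well above the other 3 libraries, and the groups did not overlap. The log2 fold change of Airn was -0.75 (SE 0.272, edgeR adjusted p 0.309), and it was -0.38 without untreated replicate 1. Same-numbered libraries had CCCP to untreated ratios of 0.527 and 0.705. Unspliced reads of Igf2r, whose span Airn overlaps on the opposite strand, cannot be told apart from those of Airn.

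In the Dlk1-Meg3 cluster on chromosome 12, Meg3, Rian and Rtl1 stood lower with CCCP, while the groups overlapped for Dlk1 and Mirg. The difference between these genes was not tested. Meg3 (109540996 to 109571729), whose transcription unit continues toward Rian and Mirg, had 869 and 484 CPM untreated and 405 and 277 CPM with CCCP. Rian (109603945 to 109661716), a host of small nucleolar RNAs, had 555 and 441 CPM untreated and 368 and 321 CPM with CCCP. Both RNAs were lower in each CCCP library than in either untreated library. The log2 fold changes were -0.99 (SE 0.315) for Meg3 and -0.53 (0.164) for Rian, with edgeR adjusted p-values of 0.272 and 0.270. DESeq2 gave an adjusted p of 0.0280 for Meg3 and 0.0885 for Rian. Untreated replicate 1 held the highest level of both, and without it the estimates were -0.49 and -0.34. Between same-numbered libraries, which are not stated to be pairs, the ratio of CCCP to untreated was 0.466 and 0.572 for Meg3. For Rian it was 0.664 and 0.729.

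Mirg (109734981 to 109749458), the microRNA host at the far end, had 23.0 and 17.4 CPM untreated and 19.4 and 17.8 CPM with CCCP, and its groups overlapped (log2 fold change -0.12, edgeR p 0.548, adjusted 0.790). Dlk1 (109452485 to 109463336), a membrane protein that holds progenitors undifferentiated, had 604 and 480 CPM untreated and 566 and 483 CPM with CCCP. Its groups overlapped too, with a log2 fold change of -0.05 and an adjusted p of 0.915. Dio3, which inactivates thyroid hormone, had only 60 to 84 counts in a library and a log2 fold change of -0.11, with groups that barely separated.

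Rtl1, a retrotransposon-derived gene needed in placental vessels (109564900 to 109604418), had 48.3 and 29.1 CPM untreated and 23.7 and 15.9 CPM with CCCP. The groups did not overlap, with an estimate of -0.97 (SE 0.296) and adjusted p-values of 0.268 in edgeR and 0.0472 in DESeq2. Without untreated replicate 1 it was -0.54. Same-numbered libraries had CCCP to untreated ratios of 0.491 and 0.546. The exons annotated for Rtl1 span 30762 bases on the strand opposite to Meg3 and share 4091 bases with it. Reads of Rtl1 and of its antisense transcript cannot be told apart in counts made without strand. The Rtl1 count was 5.56% and 6.02% of the Meg3 count untreated and 5.86% and 5.75% with CCCP, a nearly constant share.

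**Figure D3:**
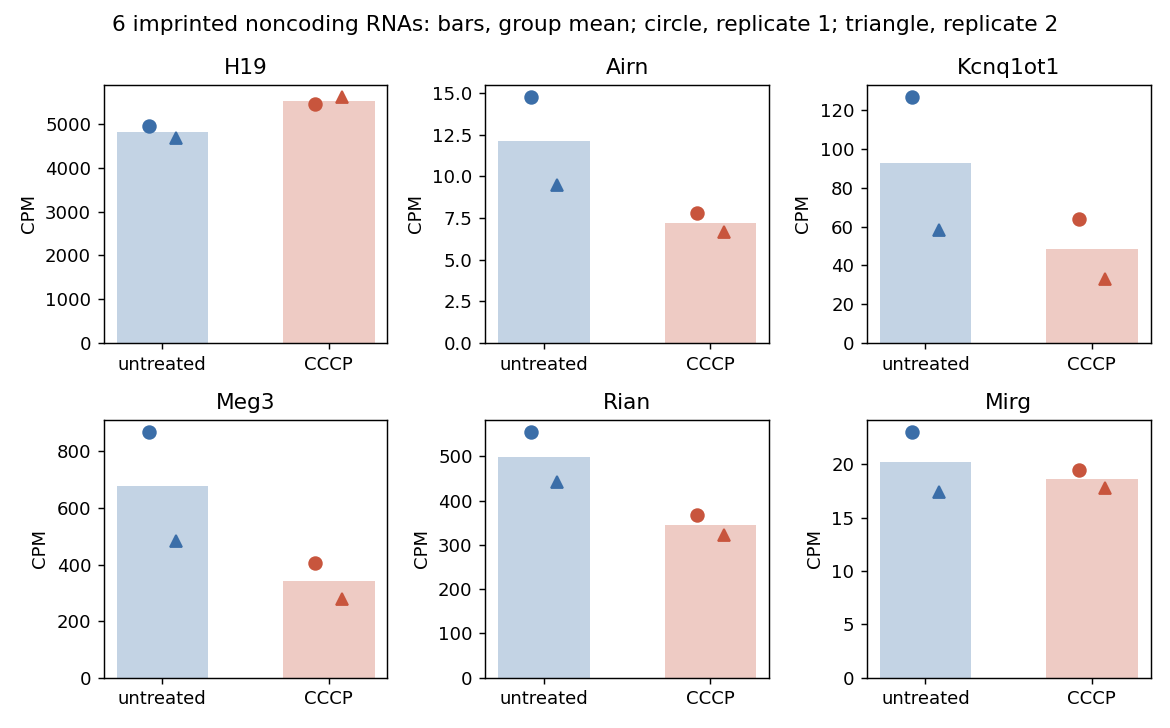
Levels of the 6 noncoding RNAs in CPM (linear axes from 0); bars are group means of 2 libraries, circles replicate 1 and triangles replicate 2. H19, at 4679 to 5612 CPM, is the member whose CCCP libraries lie above the untreated ones, while Airn, Meg3 and Rian lie lower in both CCCP libraries, and Kcnq1ot1 and Mirg overlap.

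The Kcnq1 cluster on chromosome 7 is governed by Kcnq1ot1, a paternally expressed RNA that is transcribed inside the potassium channel gene Kcnq1 on the opposite strand. Kcnq1ot1 (143213111 to 143296547, 83437 bases without introns) had 127 and 58.4 CPM untreated and 64.1 and 33.2 CPM with CCCP. CCCP replicate 1 lay above untreated replicate 2, so the groups overlapped. The log2 fold change was -0.93 (SE 0.431, edgeR adjusted p 0.380), and it ran from -1.47 without CCCP replicate 1 to -0.25 without untreated replicate 1. Replicate 1 stood above replicate 2 in both groups, 2.17 times untreated and 1.93 times with CCCP. Between same-numbered libraries the ratio of CCCP to untreated was 0.506 and 0.568, though the numbers are not stated to pair them. Kcnq1 itself stood at 5.25 to 7.06 CPM with overlapping groups (log2 fold change 0.01).

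Cdkn1c, the maternally expressed inhibitor of cyclin-dependent kinases that holds blood stem cells in quiescence (143458339 to 143461059), had 975 and 709.8 CPM untreated and 1167 and 969.6 CPM with CCCP. Its groups overlapped by the narrow margin between untreated replicate 1 and CCCP replicate 2. The log2 fold change was 0.34 (SE 0.203, edgeR adjusted p 0.470), and it ran from 0.16 without untreated replicate 2 to 0.60 without untreated replicate 1. Phlda2, which restrains growth of the placenta, had 20 to 68 counts and Slc22a18 13 to 38, with log2 fold changes of -0.80 and -0.39 and adjusted p-values of 0.513 and 0.770. With 1 library left out Phlda2 ran from -1.18 to -0.18 and Slc22a18 from -1.04 to 0.05, so neither estimate was stable.

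In the Peg3 cluster on chromosome 7 both CCCP libraries were below both untreated libraries for all 3 members, as they were for 24.8% of all genes. Zim1, a maternally expressed zinc finger gene (6674444 to 6696540), had 163 and 135 CPM untreated and 59.5 and 85.6 CPM with CCCP. Its log2 fold change of -1.04 (SE 0.202) was the farthest from 0 of the 33 members. The adjusted p-value was 0.169 in edgeR and 0.000631 in DESeq2, and the estimate ran from -1.31 to -0.79 with 1 library left out. Peg3, a paternally expressed zinc finger gene (6703892 to 6730462), had 1581 and 1372 CPM untreated and 1022 and 1228 CPM with CCCP, a log2 fold change of -0.39 (edgeR adjusted p 0.355). Usp29, which shares its start region with Peg3, had 58.8 and 53.3 CPM untreated and 50.3 and 53.3 CPM with CCCP, and a log2 fold change of -0.12. For Usp29 the separation was nominal, since untreated replicate 2 and CCCP replicate 2 had nearly equal levels.

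The Snrpn cluster on chromosome 7 is the mouse counterpart of the region altered in Prader-Willi and Angelman syndromes. Ube3a, a ubiquitin ligase gene imprinted in neurons and expressed from both alleles in most other cells (59228750 to 59310837), had 178 and 165 CPM untreated and 107 and 119 CPM with CCCP. The libraries of each group lay close together and the groups were well apart. Its log2 fold change was -0.60 (SE 0.121), the adjusted p-value was 0.175 in edgeR and 0.0102 in DESeq2, and leaving out 1 library moved it only between -0.67 and -0.52. Ube3a shares 267 exon bases with its antisense transcript Snhg14. That gene, singled out after its values were seen, had 9.23 and 9.95 CPM untreated and 5.40 and 5.29 CPM with CCCP (log2 fold change -0.84, adjusted p 0.219 in edgeR and 0.0437 in DESeq2).

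The other tested members of that cluster had estimates closer to 0 than Ube3a. Ndn, a paternally expressed gene of the MAGE family, had 122 and 122 CPM untreated and 184 and 137 CPM with CCCP, a log2 fold change of 0.40 (SE 0.163, edgeR adjusted p 0.342) that ran from 0.17 without CCCP replicate 1 to 0.60 without CCCP replicate 2. Magel2, another MAGE gene, stood at 11.7 to 15.2 CPM and the ring finger gene Mkrn3 at 10.48 to 12.7 CPM, and for both the groups overlapped. Peg12, an inhibitor of GSK3 in Wnt signalling, stood at 26.1 to 38.8 CPM, also with overlap. Snrpn had 14 and 6 counts untreated and 3 and 7 counts with CCCP. Its exons share 72.3% of their bases with Snurf and Snhg14, whose reads were then assigned to none of them, and Snurf had 0 counts, so these counts give no level of Snrpn.

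Of the members outside those clusters, Plagl1 stood apart most. Plagl1, a paternally expressed zinc finger factor known as a regulator of other imprinted genes (chromosome 10, 13090832 to 13131694), had 562 and 447 CPM untreated and 353 and 295 CPM with CCCP. The groups did not overlap, and the log2 fold change was -0.64 (SE 0.171), with adjusted p-values of 0.230 in edgeR and 0.0292 in DESeq2. It ran from -0.77 to -0.45 with 1 library left out. The known Plagl1 targets Igf2, H19, Cdkn1c and Dlk1 had log2 fold changes of -0.02, 0.20, 0.34 and -0.05, as given above.

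Nnat (chromosome 2, 157560078 to 157562525) had 466 and 449 CPM untreated and 601 and 548 CPM with CCCP. Both CCCP libraries were above both untreated libraries, at a log2 fold change of 0.33 (SE 0.131, edgeR adjusted p 0.335). It was the member with an unadjusted p under 0.05 on the higher side (0.0461). Nnat lies in an intron of Blcap on the opposite strand. Gnas, which encodes the stimulatory G protein alpha subunit and, from other starts, further imprinted transcripts summed in the same row, had 1228 and 1301 CPM untreated and 1492 and 1365 CPM with CCCP (log2 fold change 0.18, adjusted p 0.597). Grb10 stood at 1334 to 1596 CPM with overlapping groups and a log2 fold change of 0.07 (adjusted p 0.874).

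Peg10, a retrotransposon-derived gene of placental development, stood at 602 to 763 CPM, and its divergent neighbour Sgce at 30.6 to 31.4 CPM. Groups overlapped for both and for Asb4 (83.7 to 111 CPM). The same held for Mest (578 to 864 CPM) and Copg2 (96.0 to 113 CPM), which share 913 exon bases on opposite strands. Zrsr1, a splicing factor gene that lies within Commd1 on the opposite strand and shares 419 exon bases with it, stood at 11.8 to 12.7 CPM with a log2 fold change of 0.09 and both CCCP libraries slightly higher. The edgeR adjusted p-values of these 6 members lay between 0.590 and 0.987.

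Exon length goes with the fold change in these libraries, which bears on the long and the short members. Across all genes, which are not independent replicates, the median log2 fold change was 0.22 in the shortest of 10 equal classes of exon length and -0.36 in the longest (9131 bases or more). When the trend on exon length was removed from each library, the estimate of Kcnq1ot1 went from -0.93 to -0.23, that of Peg3 from -0.39 to -0.06, that of Ube3a from -0.60 to -0.33 and that of Rtl1 from -0.97 to -0.45. Zim1 stood at -0.82, Meg3 at -0.61, Rian at -0.54, Plagl1 at -0.54 and Airn at -0.86. Short members reported above as higher came closer to 0, Nnat at 0.16, Ndn at 0.25, H19 at 0.10 and Cdkn1c at 0.21. Phlda2 went from -0.80 to -1.02. Usp29 turned from -0.12 to 0.26 and Igf2r from -0.20 to 0.05, and Gnas stood at 0.50. The length used was that of all annotated exons of a row, 11851 bases for Gnas, whose row sums transcripts from several starts. The lengths of the transcripts present were not measured. With the trend removed the median of the noncoding RNAs was -0.43 and that of the coding genes 0.03, with 0 of 33 members called by edgeR.

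**Figure D4:**
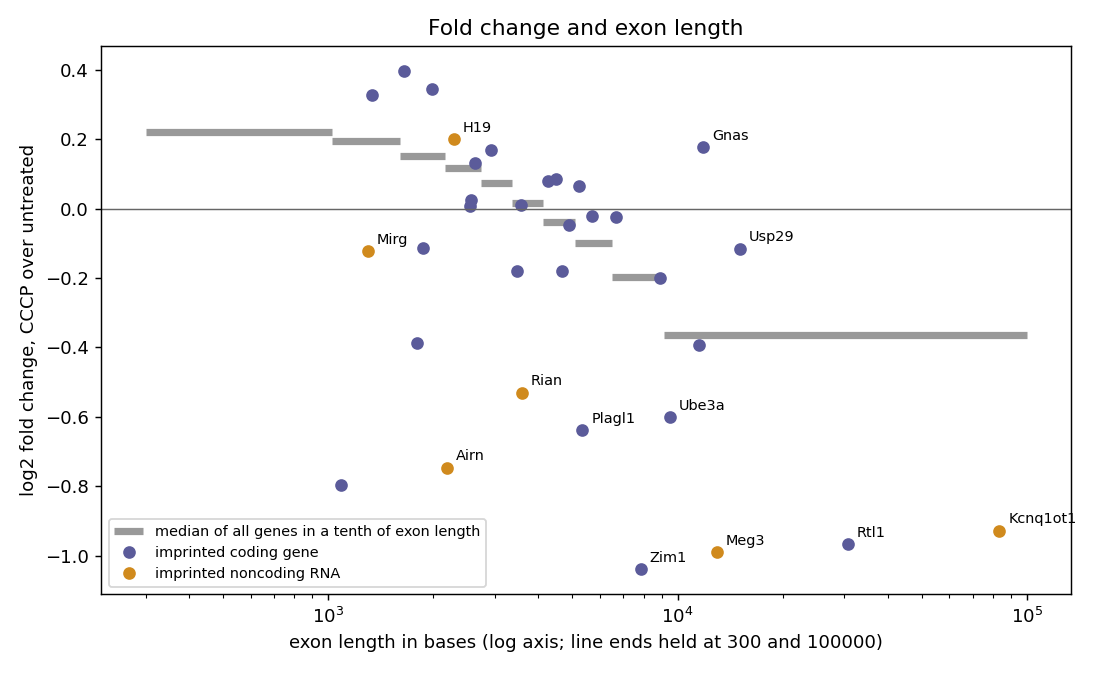
Log2 fold change (CCCP over untreated) of the tested members against exon length in bases (log axis); grey lines are the medians of all genes in each of 10 equal classes of exon length. Phlda2, Slc22a18, Airn, Rian, Plagl1, Zim1, Meg3 and Rtl1 lie well below the grey line at their length. Kcnq1ot1 does too, but the last line is a single median for all genes of 9131 bases or more. With the fitted length trend removed, Kcnq1ot1 stood at -0.23. Gnas, Usp29 and Ndn are among those above it.

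Ratios of counts between neighbours within a library do not depend on library scaling, and they were set out by locus. Rian per Dlk1 count was 0.918 and 0.918 in the untreated and 0.650 and 0.665 in the CCCP libraries, with libraries of a group close together and the groups apart. Meg3 per Dlk1 was 1.44 and 1.01 untreated and 0.715 and 0.573 with CCCP. Meg3 per Rian overlapped between the groups (1.57 and 1.10 against 1.10 and 0.862). Zim1 per Peg3 was 0.103 and 0.0981 untreated and 0.0582 and 0.0697 with CCCP. Airn per Igf2r was 0.0194 and 0.0139 against 0.0132 and 0.01004, the groups nearly touching, and H19 per Igf2 overlapped (1.25 and 1.44 against 1.38 and 1.77). Of the ratios set out, 2 were higher in both CCCP libraries. Mirg per Rian was 0.0415 and 0.0396 untreated and 0.0528 and 0.0553 with CCCP, and Usp29 per Peg3 was 0.0372 and 0.0389 against 0.0492 and 0.0434. Kcnq1ot1 per Cdkn1c was lower, at 0.130 and 0.0823 against 0.0549 and 0.0342. The ratios keep the trend on exon length, and this pair sets 83437 exon bases against 1987. With that trend removed the log2 fold change of Kcnq1ot1 went from -0.93 to -0.23 and that of Cdkn1c from 0.34 to 0.21. Peg10 per Sgce and Mest per Copg2 overlapped. The pairs were chosen with values of these data known, and no test is given, as the smallest two-sided p of an exact permutation test of 2 against 2 libraries is 0.333.

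**Figure D5:**
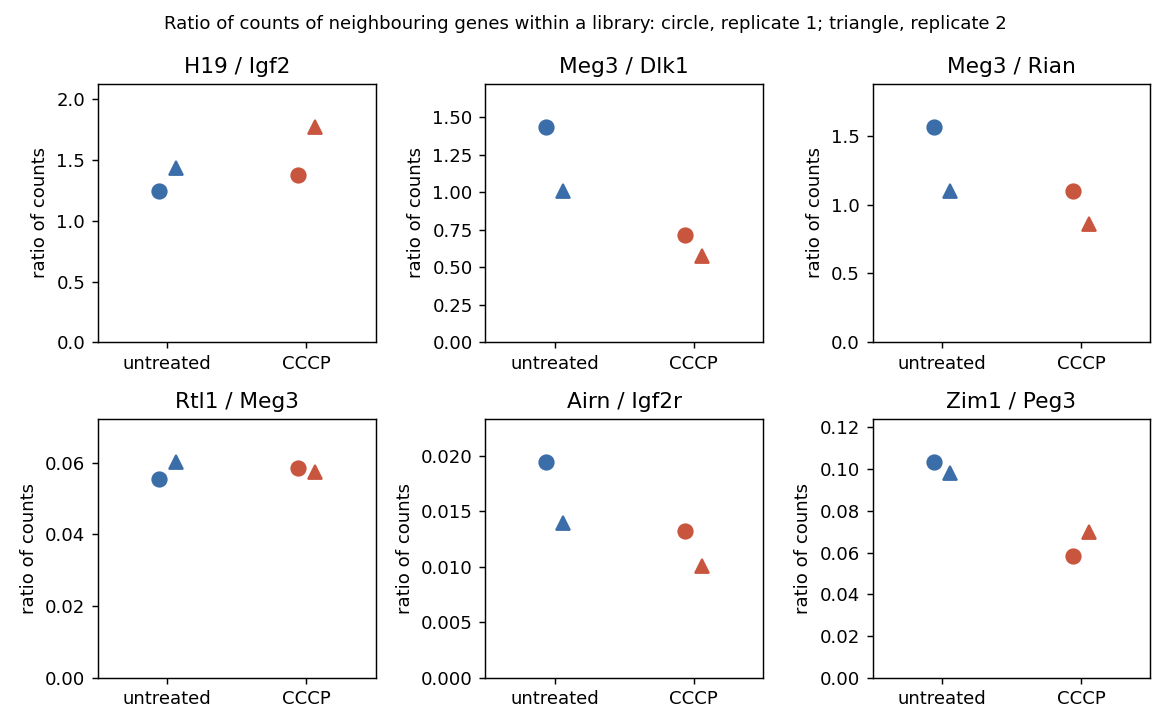
Ratio of counts between neighbouring imprinted genes within each library (linear axes from 0); blue is untreated and red CCCP, circles replicate 1 and triangles replicate 2. Meg3/Dlk1, Airn/Igf2r and Zim1/Peg3 are lower in both CCCP libraries, Rtl1/Meg3 stays between 0.0556 and 0.0602, and H19/Igf2 and Meg3/Rian overlap.

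A list of further imprinted genes outside the 34 was read the same way. Of 46 present in the files, 38 passed the filter, 0 were called by edgeR, and 10 had an unadjusted p under 0.05 (7 lower, 3 higher), while DESeq2 called 3. Of all genes tested, 14.6% had an unadjusted p under 0.05 (9.16% lower, 5.45% higher). DESeq2 called 3.32% of the genes to which it gave an adjusted p. The 3 of the list that DESeq2 called, named after their values were seen, were Ppp1r9a, Zdbf2 and Snhg14, with log2 fold changes of -0.87, -0.87 and -0.84. With the trend on exon length removed these were -0.41, -0.50 and -0.41. The median log2 fold change of the 38 tested genes of the list was -0.19. The 4 most abundant, named by level alone, were Nap1l4, a histone chaperone gene (204 and 216 CPM untreated, 245 and 230.2 CPM with CCCP), H13, Cd81 and Slc38a4. Their log2 fold changes were 0.18, 0.31, 0.22 and -0.02. The first 3 had both CCCP libraries higher, as did 24% of all genes.

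In the IGF pathway, through which Igf2, Igf2r and Grb10 act, 26 of 27 listed genes were tested. None was called by edgeR, and 7 were lower and 3 higher at an unadjusted p under 0.05 (9.16% and 5.45% of all genes). DESeq2 called 3 (3.32% of the genes to which it gave an adjusted p). The median log2 fold change of the 26 tested genes was -0.08. The 3 called, named after their values were seen, were Igfbp1, also a liver transcript, and the IGFBP protease genes Pappa and Pappa2, with log2 fold changes of -3.87, -1.03 and -1.38. With the trend on exon length removed these were -4.06, -0.74 and -1.10. Igfbp5, Igfbp4 and Igfbp3 encode proteins that bind IGFs, and Akt1 a kinase downstream of the receptor. Igfbp5 had the highest level (1560.0 and 883 CPM untreated, 1234 and 1059.8 CPM with CCCP) and overlapped between groups. Igfbp4 had 613 and 628 CPM untreated and 849 and 747 CPM with CCCP (log2 fold change 0.36, edgeR adjusted p 0.325), Akt1 had a log2 fold change of 0.33 and Igfbp3 of -0.21.

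Genes that keep or erase imprints formed the last list, of which 19 of 21 passed the filter. None was called by edgeR, and 5 had an unadjusted p under 0.05, all lower (9.16% of all genes). DESeq2 called 3, all lower (2.99% of the genes to which it gave an adjusted p). The median log2 fold change of the 19 tested genes was -0.02. The 3 called, named after their values were seen, were Tet2 and Tet1, which encode enzymes that oxidise methylated cytosine, and the zinc finger gene Zfp445, with log2 fold changes of -1.05, -0.66 and -0.86. With the trend on exon length removed these were -0.77, -0.24 and -0.70. The 4 most abundant of the list were flat or higher in their estimates. Trim28, the corepressor that guards methylated imprints, had 541 and 675 CPM untreated and 735 and 804 CPM with CCCP (log2 fold change 0.34, edgeR adjusted p 0.390). The DNA methyltransferase genes Dnmt3a and Dnmt1 overlapped between groups, with log2 fold changes of 0.001 and 0.06, and the histone methyltransferase gene Ehmt2 stood at 0.26.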

How the data were processed

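Poly(A) RNA was sequenced from a directional library in 4 samples, per the labels' protocols. The authors deposited unnormalized gene counts from featureCounts 2.0.3, per the file headers, and the labels give the build as mm10. The command in the headers summed exons per gene of a RefSeq annotation and sets no option for strand, for counting read pairs, or for reads that map to several places or touch several genes, so the defaults of that version (unstranded, single reads, such reads left out) apply. FastQC, HISAT2, SAMtools and Subread are named in the submitters' processing notes. The deposited exon length, the other value used, was recomputed here without alternate contigs, on which 6 members have a further copy of exons.

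Fits used edgeR 4.0.16 in R 4.3.3 (glmQLFit, glmQLFTest, two-sided) with TMM scaling, filterByExpr (min.count 10, min.total.count 15) and a design with the group alone, over all 19837 genes passing the filter, adjusted by Benjamini and Hochberg, called under 0.05. A standard error is the log2 fold change over the square root of F. DESeq2 1.42.0, other scalings, no filter, a replicate block, removal of a lowess trend on exon length (span 0.3) and leaving out each library were alternatives. The fits were tested on simulated data. A count of 3, the floor of detection, corresponds to 0.0614 to 0.0803 CPM before TMM scaling. All 34 members were named whatever their values, and of 3 further lists the 4 genes with the highest mean CPM. Members and lists were chosen with earlier results of these data known. Promoter and microRNA sequences are from RefSeq (GRCm38.p6), and all 34 members had the same span there as in the files. In 16 members exons share bases with another gene, in 13 of them on the opposite strand.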

Additional observations from a re-analysis of the deposited data

How the results depend on the processing

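With each library left out in turn, edgeR called 10 to 46 of all genes, 0 imprinted genes, and 0 to 1 in each of the lists of other imprinted, IGF pathway and imprint maintenance genes. DESeq2 called 594 of all genes, 5 members and 3 in each of those 3 lists. Without the filter on low counts the numbers were 1107, 7, 3, 4 and 4 in the same order. With the replicate block they were 2118, 8, 7, 6 and 5, and with the replicate block and the length trend removed 1569, 8, 7, 5 and 4. The replicate block called Kcnq1ot1, Airn, Meg3, Rtl1, Rian, Zim1, Ube3a and Plagl1. Same-numbered libraries correlated in their deviations from the group means (0.36 across genes), but 2 pairs do not show that the numbers pair the samples. Size factors of DESeq2 within edgeR, total counts and removal of the length trend alone called 0 genes. The median of the coding members was -0.0845 with total counts, 0.0293 with the length trend removed and 0.0321 with that and the replicate block. Of 33 members, 18 kept the sign of their estimate in all 11 alternatives. The other 15 were Asb4, Copg2, Dlk1, Grb10, Igf2, Igf2r, Kcnq1, Mest, Mirg, Mkrn3, Peg10, Peg12, Sgce, Slc22a18 and Usp29. Where calls or signs differed, the cause was not tested. Counts under about 100 limit Phlda2, Slc22a18, Dio3 and Snrpn, and strandless counting limits Rtl1. It also limits Kcnq1ot1, Nnat, Zrsr1, Ndn and Magel2, which lie inside the span of another gene on the opposite strand. Airn, which in part overlaps the span of Igf2r on the opposite strand, is limited too. Reads of unspliced RNA of the overlapping gene cannot be told apart from those of these members.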
